A study of Homo sapiens with 9 samples.

Results

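Ion channel genes of pacemaker and excitable cells were followed in GIST-T1, a human line of KIT-mutant gastrointestinal stromal tumour (GIST) cells. They were taken by symbol from a table of 23610 genes: potassium channels (KCN), voltage-gated calcium and sodium channels (CACNA, CACNB, CACNG, SCN), anoctamins (ANO), intracellular calcium release channels (RYR, ITPR), TRP channels (TRPC, TRPM, TRPV) and ORAI channels, without hyphenated symbols and symbols ending in AS. This gave 178 genes by symbol, which include the non-coding RNAs KCNQ1OT1 and KCNQ1DN and the human pseudogene TRPC2, none of them above a mean of 0.0308 FPKM. Of the 178, 37 had a mean of at least 1 FPKM over 9 libraries and were compared between groups. These 37 were chosen by that measured mean over all libraries, which takes no account of the groups. FPKM divides a gene's fragment count by its transcript length and the size of the library, so levels of different genes can be set side by side. PolyA RNA was sequenced from 3 libraries with HAND1 sgRNA, 3 with ETV1 sgRNA and 3 with a Luciferase sgRNA as control, all in the same cell line. The labels call the guides a knockdown and give neither the form of Cas9 nor a sampling time. HAND1 is a mesodermal transcription factor of the basic helix-loop-helix class, and ETV1 belongs to the ETS family and is known as a lineage factor of interstitial cells of Cajal. Nothing in the labels places a group's libraries in separate cultures, so p-values here reflect variation among these libraries only, and that may be technical.

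Interstitial cells of Cajal are the pacemaker cells of the gut wall and the likely cells of origin of GIST. In these cells calcium is released from the endoplasmic reticulum through ITPR channels, opens the calcium-activated chloride channel ANO1 and depolarises the membrane, while T-type calcium channels such as CACNA1H help to time and spread the slow wave. Stores are refilled through ORAI channels, which the store sensors STIM1 and STIM2 open, and potassium channels pull the membrane back to rest.

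The targeted transcripts were low in their own libraries. HAND1 was at 37.6, 40.8 and 36.5 FPKM with HAND1 sgRNA, against 116, 114 and 114 FPKM with Luciferase sgRNA. ETV1 was at 10.9, 12.0 and 11.2 FPKM with ETV1 sgRNA, against 42.2, 39.4 and 37.4 FPKM with Luciferase sgRNA. In the ETV1 sgRNA libraries HAND1 was at 134, 133 and 130 FPKM, above every control library. That difference was not called in the test described below. In the HAND1 sgRNA libraries ETV1 was at 40.8, 39.8 and 41.8 FPKM, overlapping the control. Absolute depth is unknown, since the table has no counts, and depth relative to Luciferase sgRNA replicate 1 ranged from 0.637 to 1. Luciferase sgRNA replicate 3 had the highest summed FPKM (538689, against 451286 to 479939 in the other libraries). Without it the same numbers of channel genes were called in all 3 comparisons below (4, 0 and 4). A mean of 1 FPKM was passed by 48.1% of all genes in the table, so passing it does not by itself identify a cell type. All 6 markers listed for Cajal cells and GIST (ANO1, CACNA1H, KIT, ETV1, CD34 and PRKCQ) passed it. Neuronal markers did not: 0 of 8 passed, 4 were listed at 0 throughout, and their summed level was 0.638 to 1.39 FPKM with HAND1 sgRNA, 0.598 to 1.44 with ETV1 sgRNA and 0.909 to 1.27 with Luciferase sgRNA. Cardiac and skeletal muscle markers had 0 of 7 and 0 of 5 above the minimum. Of 7 smooth muscle markers SYNM (mean 13.9 FPKM) and ACTG2 (1.01 FPKM) passed, while MYH11, DES and CNN1 each had a mean below 0.1 FPKM.

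Most channel genes were low or listed at 0. Of the 178, 39 were listed at 0 in all 9 libraries, 102 had values above 0 and a mean below 1 FPKM, 25 lay between 1 and 10 FPKM and 12 reached 10 FPKM. Thus 20.8% of the channel genes passed the minimum, against 48.1% of all genes in the table. Among those that passed, the median level was 4.15 FPKM for channel genes and 13.3 FPKM for all genes. A listed 0 can be a failed estimate in this table: CLIC1, a chloride channel gene that most cells use, is listed at 0 in all 9 libraries.

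Families differed in how many members were detected. All 3 ORAI genes passed, as did 4 of 10 anoctamins, 3 of 10 calcium channel pore subunits, 3 of 16 calcium channel auxiliary subunits and 2 of 6 intracellular release channels. Among potassium channels, 5 of 42 voltage-gated entries (40 without the 2 non-coding RNAs), 3 of 16 inward rectifiers, 2 of 15 tandem-pore genes, 3 of 12 calcium- or sodium-activated genes with their beta subunits, and 4 of 13 other auxiliary subunits passed. Of 14 sodium channel genes, SCN4B, an auxiliary beta subunit, was the 1 that passed, so no pore-forming sodium channel did. TRP channels had 4 of 21.

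**Figure D1:**
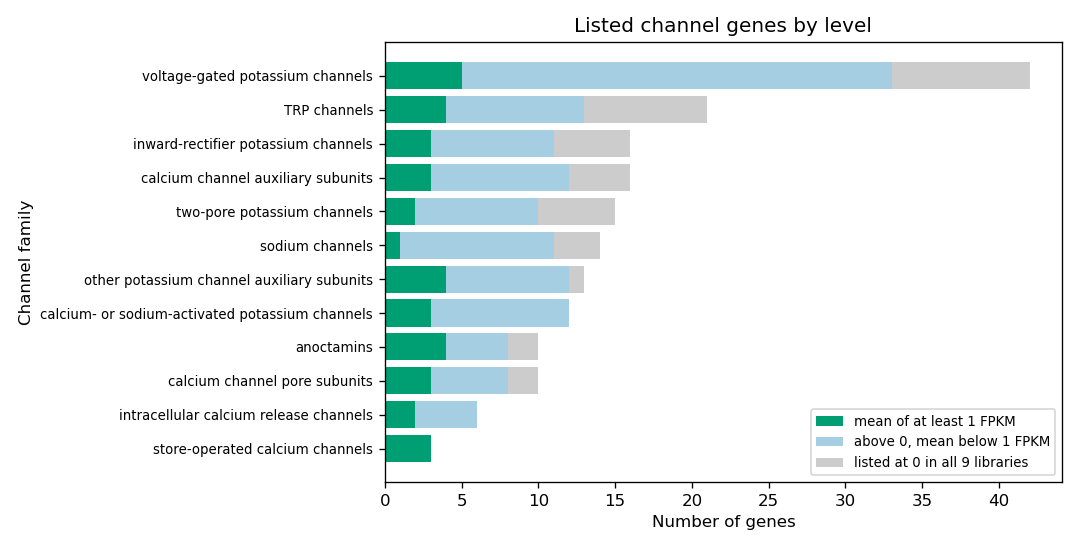
Number of listed channel genes (x axis) in each family (y axis), split by level over the 9 libraries. The green segments are the genes compared between groups; voltage-gated potassium channels are the largest family with 42 entries (2 of them non-coding RNAs), of which 5 are green, and all 3 store-operated genes are green.

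ANO1 led the list by a wide margin. It had 169, 168 and 173 FPKM with HAND1 sgRNA, 172, 174 and 171 FPKM with ETV1 sgRNA, and 170.4, 165 and 159 FPKM with Luciferase sgRNA. Its mean was 2.49 times that of the next gene, it held 29.6% of the summed FPKM of all 178 genes, and it ranked 453 among the 11348 genes that passed the minimum. The next were ORAI1 (mean 67.8 FPKM), KCNJ8 (44.2), KCNH2 (41.9), CACNB3 (30.0), KCNMB2 (24.1), KCNE4 (23.2), ORAI3 (19.4), ANO6 (18.5), KCNK5 (12.9), ORAI2 (12.3) and KCNMB3 (10.3). In this order the library values of neighbouring genes overlapped in all but 4 of 36 pairs. The gaps lay below ANO1, below ORAI1, between KCNH2 and CACNB3, and between ANO6 and KCNK5.

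**Figure D2:**
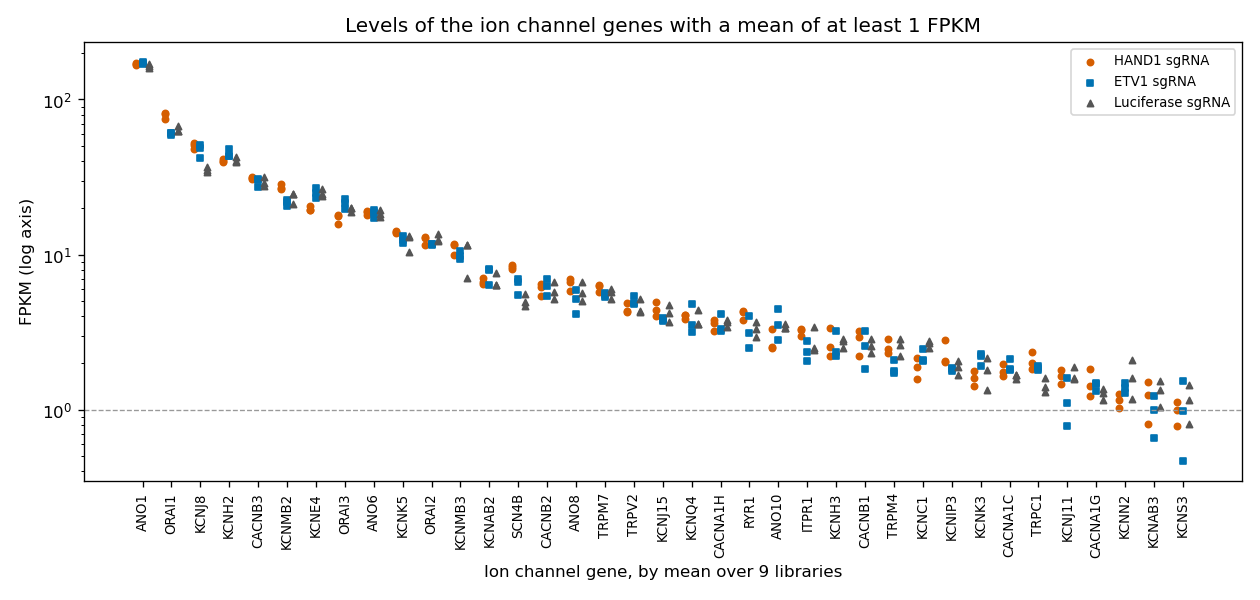
FPKM on a log axis (y) of the 37 channel genes that passed the minimum, ordered by mean (x); each point is 1 library, 3 with HAND1 sgRNA (circles), 3 with ETV1 sgRNA (squares) and 3 with Luciferase sgRNA (triangles), and the dashed line is 1 FPKM. ANO1 stands at 159 to 174 FPKM in every library, and the spread between libraries widens towards the low end.

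Low genes were measured less precisely. The within-group SD on the log2(FPKM + 1) scale had a median of 0.0778 over the 12 genes of at least 10 FPKM and of 0.146 over the other 25, from 0.0316 for ANO1 to 0.269 for KCNS3. Just inside the minimum were KCNS3 (mean 1.03 FPKM), KCNAB3 (1.15) and KCNN2 (1.38), and just outside it KCNK13 (0.925), ANO2 (0.855) and KCNRG (0.772). KCNAB3 passed although its mean was below 1 FPKM with ETV1 sgRNA, and KCNS3 although it was below 1 FPKM with HAND1 sgRNA and with ETV1 sgRNA, and KCNK13 and ANO2 failed with a group mean above it.

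Differences between groups were tested with limma on the log2(FPKM + 1) scale over all 11348 genes, with Benjamini-Hochberg adjustment, and genes were called at an adjusted p under 0.05. A difference on this scale understates the change of low genes. The comparisons of HAND1 sgRNA and of ETV1 sgRNA share the same 3 control libraries.

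With HAND1 sgRNA, 3 channel genes rose and 1 fell against Luciferase sgRNA: KCNJ8, SCN4B and ORAI1 were higher and KCNE4 was lower. The 4 calls among 37 genes are 10.8%, beside 6.60% of all genes tested, and by direction they set 3 of 37 (8.11%) beside 3.67% called higher and 1 of 37 (2.70%) beside 2.93% called lower. At an unadjusted p under 0.05 there were 8 of 37 (21.6%), beside 20.3% of all genes. The median difference was 0.04 for the channel genes and −0.01 for all genes. Group values did not overlap for 11 of 37 channel genes (29.7%), beside 25.7% of all genes tested.

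KCNJ8, the pore of an ATP-sensitive potassium channel of vascular and other smooth muscle, had 47.9, 52.2 and 51.0 FPKM with HAND1 sgRNA, against 35.0, 36.8 and 34.0 FPKM with Luciferase sgRNA. Every HAND1 sgRNA library lay above every control library. KCNJ8 rose by 0.50 (log2, SE 0.072, limma adjusted p = 0.00235), 1.43 times the control in mean FPKM. With ETV1 sgRNA it was at 50.6, 48.6 and 41.9 FPKM, also above every control library, and the difference of 0.40 was not called (adjusted p = 0.0810). Without ETV1 sgRNA replicate 3, the lowest of its group, this difference was 0.48 and was called (adjusted p = 0.0300). That was the 1 call among 18 alternatives. The difference between HAND1 sgRNA and ETV1 sgRNA was 0.10, with a 95% interval of −0.06 to 0.26 (adjusted p = 0.593).

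ABCC9, the sulphonylurea receptor that surrounds the KCNJ8 pore, was at 7.84, 7.19 and 7.08 FPKM with HAND1 sgRNA, 8.28, 7.13 and 5.90 FPKM with ETV1 sgRNA and 6.01, 5.31 and 5.26 FPKM with Luciferase sgRNA. Its difference from the control was 0.36 with HAND1 sgRNA (limma adjusted p = 0.0831) and 0.30 with ETV1 sgRNA (adjusted p = 0.482), neither of them called. Without ETV1 sgRNA replicate 3 the HAND1 sgRNA difference was called (adjusted p = 0.0410), 1 of 3 calls among 18 alternatives. The other pore gene of ATP-sensitive channels, KCNJ11, was at 1.45, 1.65 and 1.81 FPKM with HAND1 sgRNA, 1.60, 0.778 and 1.10 FPKM with ETV1 sgRNA and 1.57, 1.88 and 1.60 FPKM with Luciferase sgRNA. Its HAND1 sgRNA values overlapped those of the control.

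SCN4B is a beta subunit that modulates the gating of voltage-gated sodium channels. It had 8.32, 8.03 and 8.51 FPKM with HAND1 sgRNA, 5.45, 6.97 and 6.62 FPKM with ETV1 sgRNA and 4.63, 4.96 and 5.60 FPKM with Luciferase sgRNA. The HAND1 sgRNA libraries were above all others, while those with ETV1 sgRNA overlapped the control. SCN4B rose by 0.62 with HAND1 sgRNA (log2, SE 0.097, limma adjusted p = 0.00369), 1.64 times the control in mean FPKM, and this was the largest difference of a channel gene in any of the 3 comparisons. Its ETV1 sgRNA difference was 0.27 (adjusted p = 0.475) and that between HAND1 sgRNA and ETV1 sgRNA 0.34 (adjusted p = 0.0871).

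The sequence upstream of KCNJ8, SCN4B and ANO1 is shown as RefSeq (GRCh38.p14) gives it: the 250 bases before the annotated start, 5′ to 3′ on the gene's strand, for the 2 channel genes with the largest differences and for the most abundant one. Capitals mark matches to the E-box CANNTG, the core that basic helix-loop-helix factors bind, which reads the same on both strands. They also mark CCGGAA matches (or TTCCGG, its reverse complement), a longer form of the ETS core GGAA. Matches to GGAA alone, or to its reverse complement TTCC, were neither marked nor counted. The KCNJ8 and SCN4B windows hold such shorter matches.
KCNJ8 (chr12:21774707-21774956, minus strand): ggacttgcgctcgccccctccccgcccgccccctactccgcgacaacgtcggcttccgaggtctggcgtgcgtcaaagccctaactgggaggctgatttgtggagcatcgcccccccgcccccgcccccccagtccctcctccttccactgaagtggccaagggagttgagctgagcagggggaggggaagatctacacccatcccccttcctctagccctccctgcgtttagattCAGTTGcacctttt
SCN4B (chr11:118145434-118145683, minus strand): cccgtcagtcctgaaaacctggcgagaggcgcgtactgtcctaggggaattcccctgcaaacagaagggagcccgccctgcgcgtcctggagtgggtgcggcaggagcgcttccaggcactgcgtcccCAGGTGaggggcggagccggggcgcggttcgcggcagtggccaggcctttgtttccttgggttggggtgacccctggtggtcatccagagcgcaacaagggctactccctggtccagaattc
ANO1 (chr11:69985657-69985906, plus strand): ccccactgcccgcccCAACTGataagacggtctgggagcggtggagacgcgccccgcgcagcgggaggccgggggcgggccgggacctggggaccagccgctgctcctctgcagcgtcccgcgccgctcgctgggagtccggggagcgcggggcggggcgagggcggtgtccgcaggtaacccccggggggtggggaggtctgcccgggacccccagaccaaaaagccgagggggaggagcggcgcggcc
Each of these windows holds 1 E-box match and 0 CCGGAA matches. Of the other genes called in any comparison, KCNMB2 has 0 and ORAI3 has 4 E-box matches in its window. Neither has a CCGGAA match. Of 35116 windows of the same length in that table, 61.8% hold an E-box match and 14.5% a CCGGAA match. Of the 37 channel genes 27 had an entry, with an E-box match in any entry in 20 and a CCGGAA match in 1. These counts are not like the shares of single windows, since some genes have several entries. Of the 18 with 1 entry, 11 (61.1%) held an E-box match and 0 a CCGGAA match. ORAI1 and KCNE4 were among those without an entry. The matches are letters in these windows only, and the start that these cells use was not measured.

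ORAI1, the pore of the store-operated calcium channel, had 74.6, 80.9 and 81.3 FPKM with HAND1 sgRNA, 59.4, 60.8 and 61.2 FPKM with ETV1 sgRNA and 62.6, 67.1 and 62.6 FPKM with Luciferase sgRNA. The HAND1 sgRNA libraries were above the other 6. ORAI1 rose by 0.30 over Luciferase sgRNA (log2, SE 0.053, limma adjusted p = 0.00769) and by 0.38 over ETV1 sgRNA (SE 0.053, adjusted p = 0.00278), 1.23 and 1.31 times in mean FPKM. Both calls were made under all 18 alternatives, 9 of which left out 1 library. ORAI3, a related pore, was at 17.6, 18.1 and 15.7 FPKM with HAND1 sgRNA, 21.5, 19.7 and 22.9 FPKM with ETV1 sgRNA and 18.8, 20.0 and 19.9 FPKM with Luciferase sgRNA. It lay below both other groups without overlap, and its difference from the control of −0.18 was not called (adjusted p = 0.190). For ORAI2 the values overlapped, with 12.8, 11.6 and 12.9 FPKM with HAND1 sgRNA and 12.2, 12.4 and 13.6 FPKM with Luciferase sgRNA. The store sensors STIM1 and STIM2 were not called either, at −0.13 (adjusted p = 0.231) and 0.01 (adjusted p = 0.947) against Luciferase sgRNA.

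KCNE4, an auxiliary subunit that inhibits several voltage-gated potassium channels, was the channel gene that fell with HAND1 sgRNA. It had 19.5, 19.2 and 20.5 FPKM there, against 25.1, 23.0 and 26.9 FPKM with ETV1 sgRNA and 24.6, 23.9 and 26.3 FPKM with Luciferase sgRNA. The HAND1 sgRNA libraries were below the other 6, whose groups had nearly equal means. KCNE4 fell by 0.32 against Luciferase sgRNA (log2, SE 0.067, limma adjusted p = 0.0171) and by 0.32 against ETV1 sgRNA (adjusted p = 0.0231). Leaving out HAND1 sgRNA replicate 1 or 2 ended the call against Luciferase sgRNA (adjusted p = 0.0633 and 0.0684). The call against ETV1 sgRNA was lost without HAND1 sgRNA replicates 1, 2 or 3 (0.0893, 0.0899 and 0.0541) and without ETV1 sgRNA replicates 1 or 3 (0.0798 and 0.0870). KCNQ1, a pore that KCNE4 is known to inhibit, had a mean of 0.213 FPKM.

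**Figure D3:**
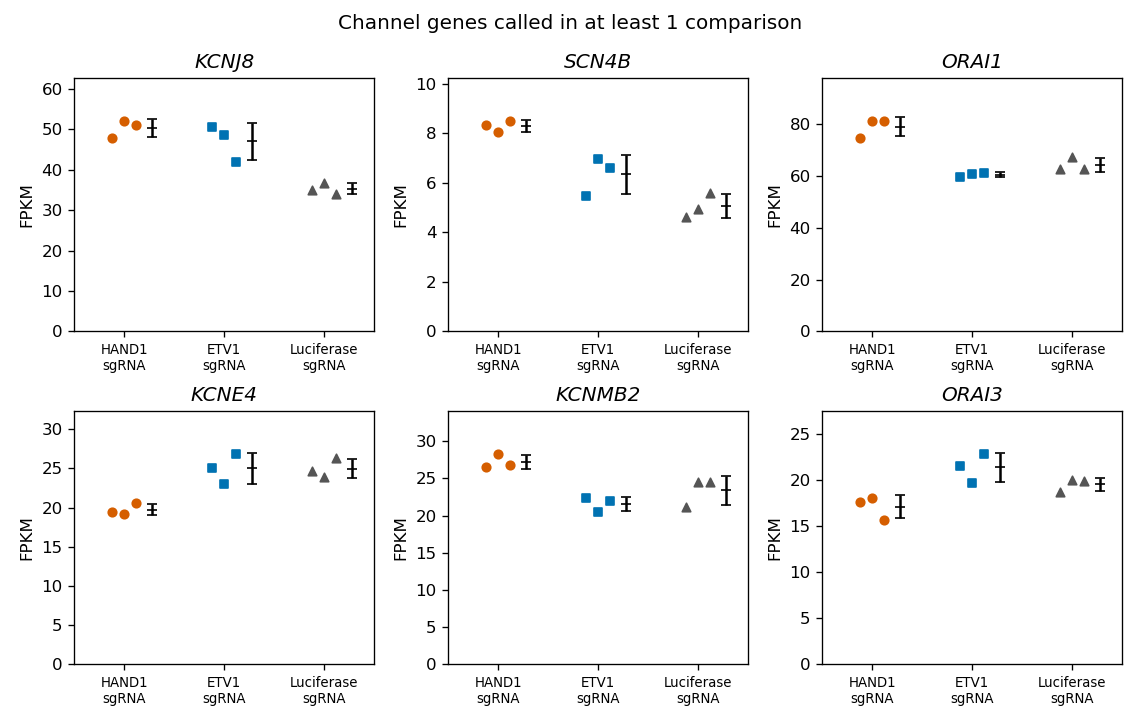
FPKM (y axis, from 0) of the 6 channel genes called in at least 1 comparison; points are libraries and the bar beside them is the mean with its SD (n = 3 in each group). KCNJ8, SCN4B and ORAI1 are highest with HAND1 sgRNA and KCNE4 is lowest there, at 19.2 to 20.5 FPKM, while KCNJ8 is also above the control with ETV1 sgRNA, at 41.9 to 50.6 FPKM.

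With ETV1 sgRNA, limma called 0 of 37 channel genes against Luciferase sgRNA, beside 0.203% of all genes tested (0.141% called higher and 0.0617% called lower). At an unadjusted p under 0.05 there were 5 (13.5%, beside 8.20% of all genes): KCNJ8, SCN4B, TRPM4, KCNH2 and KCNJ11. The median difference was −0.02 for channel genes and −0.01 for all genes, and values did not overlap for 9 of 37 (24.3%, beside 12.9%). TRPM4, a calcium-activated cation channel, had 1.71, 1.78 and 2.07 FPKM with ETV1 sgRNA, against 2.21, 2.60 and 2.87 FPKM with Luciferase sgRNA. Its difference was −0.32 (adjusted p = 0.482), with every ETV1 sgRNA library below the control. KCNH2, the hERG channel of cardiac repolarisation, had 43.2, 43.3 and 47.6 FPKM with ETV1 sgRNA, against 42.5, 39.5 and 40.1 FPKM with Luciferase sgRNA. That difference of 0.13 was not called (adjusted p = 0.581).

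ANO1 and CACNA1H differed little between the groups. The ANO1 difference from Luciferase sgRNA was 0.04 with HAND1 sgRNA (95% interval −0.06 to 0.15, limma adjusted p = 0.659) and 0.06 with ETV1 sgRNA (−0.04 to 0.17, adjusted p = 0.796). Its ETV1 sgRNA values did not overlap the control, by a narrow margin (lowest 170.6 FPKM, against a highest control value of 170.4 FPKM). CACNA1H, the T-type calcium channel, had 3.76, 3.23 and 3.64 FPKM with HAND1 sgRNA, 3.31, 4.12 and 3.19 FPKM with ETV1 sgRNA and 3.39, 3.79 and 3.66 FPKM with Luciferase sgRNA. Its values overlapped in all groups, and its differences from the control were −0.02 (−0.25 to 0.21, adjusted p = 0.934) and −0.03 (−0.26 to 0.20, adjusted p = 0.978). Of the 6 markers on that list limma called 2 lower and 0 higher with HAND1 sgRNA against Luciferase sgRNA. Over all genes tested 2.93% were called lower and 3.67% higher. The 2 were KIT and PRKCQ. KIT, the receptor mutated in most GIST, was at 156, 159 and 165 FPKM with HAND1 sgRNA, against 216, 215 and 196 FPKM with Luciferase sgRNA. PRKCQ, a protein kinase C used as a GIST marker, was at 3.51, 3.71 and 3.80 FPKM with HAND1 sgRNA, against 6.82, 6.61 and 7.08 FPKM with Luciferase sgRNA. CD34 lay the other way and was not called. It had 1817, 1716 and 1754 FPKM with HAND1 sgRNA, against 1709, 1683 and 1648 FPKM with Luciferase sgRNA. In bulk RNA fewer cells of a type and less RNA per cell cannot be told apart.

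**Figure D4:**
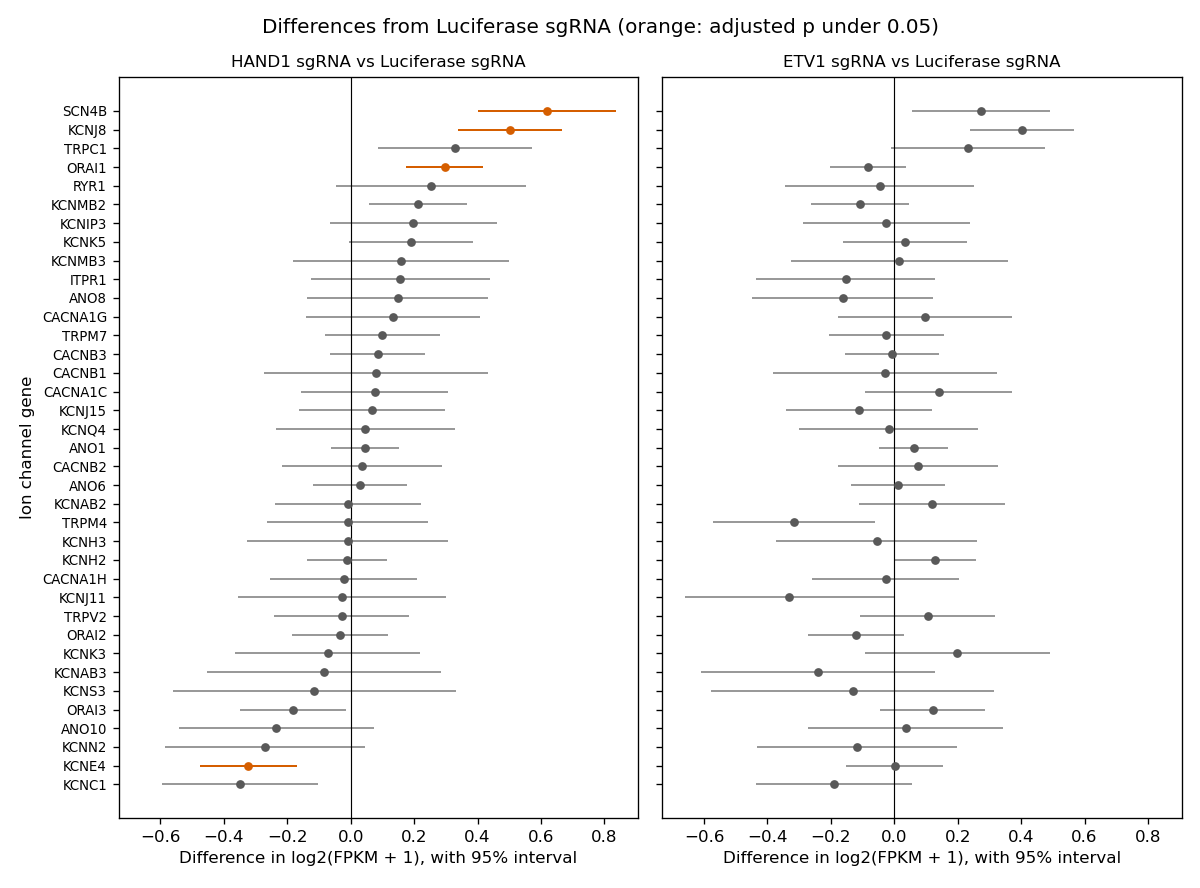
Difference in log2(FPKM + 1) from Luciferase sgRNA (x axis) of the 37 channel genes (y axis) with HAND1 sgRNA (left) and ETV1 sgRNA (right); points are limma estimates, lines their 95% intervals, and orange marks an adjusted p under 0.05. The 4 orange genes with HAND1 sgRNA are SCN4B at 0.62, KCNJ8 at 0.50, ORAI1 at 0.30 and KCNE4 at −0.32, and no gene is orange with ETV1 sgRNA.

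Set directly against ETV1 sgRNA, HAND1 sgRNA had 2 channel genes higher, ORAI1 and KCNMB2, and 2 lower, KCNE4 and ORAI3 (4 of 37 or 10.8%, beside 4.05% of all genes tested). In each direction 2 of 37 is 5.41%, beside 2.01% of all genes called higher and 2.04% called lower. At an unadjusted p under 0.05 there were 10 of 37 (27.0%), beside 15.4%. Values did not overlap for 15 of 37 (40.5%, beside 22.4%). KCNMB2, a beta subunit of the large-conductance calcium-activated potassium channel, had 26.6, 28.4 and 26.8 FPKM with HAND1 sgRNA, against 22.4, 20.5 and 21.9 FPKM with ETV1 sgRNA. With Luciferase sgRNA it was at 21.2, 24.5 and 24.6 FPKM, between the groups and overlapping ETV1 sgRNA. KCNMB2 rose by 0.32 over ETV1 sgRNA (log2, SE 0.068, limma adjusted p = 0.0271), and its difference from Luciferase sgRNA was 0.21 (adjusted p = 0.102). The call was lost without HAND1 sgRNA replicates 1, 2 or 3 (adjusted p = 0.0725, 0.106 and 0.0803) and without ETV1 sgRNA replicates 1, 2 or 3 (0.0607, 0.108 and 0.0734). KCNMA1, the pore that KCNMB2 joins, was low, with 0.365, 0.740 and 1.19 FPKM with HAND1 sgRNA, 0.400, 0.591 and 0.470 FPKM with ETV1 sgRNA and 0.454, 0.126 and 0.372 FPKM with Luciferase sgRNA.

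ORAI3 fell by 0.30 against ETV1 sgRNA (log2, SE 0.073, limma adjusted p = 0.0492), a call kept under 6 of 18 alternatives. It was lost without HAND1 sgRNA replicates 1, 2 or 3 (adjusted p = 0.108, 0.0707 and 0.174), ETV1 sgRNA replicates 1 or 3 (0.140 and 0.167) or Luciferase sgRNA replicates 1 or 2 (0.0602 and 0.0773). ORAI1 and ORAI3 thus moved in opposite directions in this comparison.

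The remaining calcium channel genes were not called in any comparison. Their levels ran from CACNB3, a beta subunit, at 31.9, 31.3 and 30.6 FPKM with HAND1 sgRNA, 30.2, 30.5 and 27.1 FPKM with ETV1 sgRNA and 27.8, 28.8 and 31.8 FPKM with Luciferase sgRNA, down to CACNA1G, another T-type pore, at a mean of 1.39 FPKM. CACNA1C, the L-type pore of smooth and cardiac muscle, had a mean of 1.79 FPKM. Of the release channels, RYR1 (mean 3.54 FPKM) and ITPR1 (2.79 FPKM) passed the minimum, and ITPR3 (0.571) and ITPR2 (0.439) did not. The inositol trisphosphate receptor ITPR1 was at 3.31, 2.99 and 3.27 FPKM with HAND1 sgRNA, 2.77, 2.35 and 2.05 FPKM with ETV1 sgRNA and 3.43, 2.49 and 2.43 FPKM with Luciferase sgRNA. HAND1 sgRNA libraries were above those with ETV1 sgRNA, with a difference of 0.31 that was not called (adjusted p = 0.265).

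The other potassium and TRP channels were likewise not called. Among the voltage-gated genes KCNC1 had 2.15, 1.57 and 1.90 FPKM with HAND1 sgRNA, against 2.68, 2.48 and 2.78 FPKM with Luciferase sgRNA (difference −0.35, adjusted p = 0.0958). TRPC1, a subunit of receptor-operated cation channels, had 2.00, 2.35 and 1.82 FPKM with HAND1 sgRNA, against 1.40, 1.60 and 1.31 FPKM with Luciferase sgRNA (0.33, adjusted p = 0.109). For both genes the groups did not overlap. KCNK5, an acid-sensitive tandem-pore channel, had 14.2, 13.8 and 13.96 FPKM with HAND1 sgRNA, against 10.4, 13.0 and 13.2 FPKM with Luciferase sgRNA (0.19, adjusted p = 0.255). TRPM7, a magnesium- and calcium-permeable channel with a kinase domain, was the highest TRP gene with a mean of 5.73 FPKM and differed by 0.10 (adjusted p = 0.540). The anoctamin ANO6, a lipid scramblase, was at 18.9, 17.96 and 19.2 FPKM with HAND1 sgRNA and 18.1, 19.3 and 17.5 FPKM with Luciferase sgRNA, in overlapping ranges. KCNMB3 had 11.7, 9.999 and 11.5 FPKM with HAND1 sgRNA and 11.5, 11.5 and 7.06 FPKM with Luciferase sgRNA, the low value being that of Luciferase sgRNA replicate 3.

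The 102 genes above 0 but below the minimum were fitted only when no minimum was set. That fit called 1 of the 102 with HAND1 sgRNA against Luciferase sgRNA, 1 with HAND1 sgRNA against ETV1 sgRNA and 0 with ETV1 sgRNA against Luciferase sgRNA. The share of all genes called in that fit is not given, so these counts cannot be set beside it. KCNJ6, a G protein-gated inward rectifier, had 0.179, 0.383 and 0.12 FPKM with HAND1 sgRNA, 0.692, 0.636 and 0.739 FPKM with ETV1 sgRNA and 0.567, 0.926 and 1.07 FPKM with Luciferase sgRNA. It fell by 0.59 against Luciferase sgRNA (log2, limma adjusted p = 0.0277). KCNN3, a small-conductance calcium-activated potassium channel, had 0.486, 0.391 and 0.341 FPKM with HAND1 sgRNA, 0.941, 1.04 and 0.756 FPKM with ETV1 sgRNA and 0.896, 0.640 and 0.893 FPKM with Luciferase sgRNA. It fell by 0.44 against ETV1 sgRNA (adjusted p = 0.0373), and its difference of −0.36 from Luciferase sgRNA was not called (adjusted p = 0.0617). Both genes are named after their values were seen and rest on very low levels.

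Genes that work beside these channels were counted from lists. Of 18 calcium store, pump and exchanger genes tested, 2 rose and 1 fell with HAND1 sgRNA (median difference 0.02), where 3.67% of all genes tested were called higher and 2.93% lower. At an unadjusted p under 0.05 there were 8 of 18, a larger share than the 20.3% of all genes, which was not tested. ATP2B1, the plasma membrane calcium pump, had 25.1, 24.2 and 26.7 FPKM with HAND1 sgRNA, against 20.8, 20.0 and 17.5 FPKM with Luciferase sgRNA (0.37, limma adjusted p = 0.0107). Leaving out HAND1 sgRNA replicate 3 ended that call (adjusted p = 0.0547). ATP2A3, a pump of the endoplasmic reticulum, rose by 0.46 (adjusted p = 0.0161, and 0.0582, 0.0528, 0.0623 and 0.0534 without HAND1 sgRNA replicates 1, 2 and 3 and Luciferase sgRNA replicate 2). SLC8A1, the sodium-calcium exchanger, had 1.16, 1.10 and 1.13 FPKM with HAND1 sgRNA, against 2.14, 2.00 and 1.92 FPKM with Luciferase sgRNA. It fell by 0.50 (adjusted p = 0.0204), a call lost without HAND1 sgRNA replicates 1, 2 or 3 (0.0583, 0.0686 and 0.0677) or Luciferase sgRNA replicates 1 or 2 (0.0729 and 0.0658).

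Among gap junction genes GJB2, a connexin, had 18.1, 19.7 and 17.4 FPKM with HAND1 sgRNA, against 11.9, 11.5 and 11.4 FPKM with Luciferase sgRNA, and rose by 0.62 (limma adjusted p = 0.00617). GJA1 and GJC1, connexins of smooth muscle and heart, were at means of 0.0393 and 3.87 FPKM. Of 14 genes that set sodium, potassium and chloride gradients SLC12A4, a potassium-chloride cotransporter, rose by 0.30 with HAND1 sgRNA (adjusted p = 0.0241) and 0 fell (median difference 0.03). Its call was lost without HAND1 sgRNA replicates 1 or 3 (0.0619 and 0.1) or Luciferase sgRNA replicates 1 or 2 (0.0633 and 0.0847). Over all genes tested 3.67% were called higher with HAND1 sgRNA against Luciferase sgRNA and 2.93% lower. At an unadjusted p under 0.05 the gradient genes had 5 of 14, beside 20.3% of all genes.

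In the other lists limma called 0 genes with HAND1 sgRNA against Luciferase sgRNA. They were calcium channel regulators and calmodulin, phospholipase C and store release signalling, and potassium channel regulators. At an unadjusted p under 0.05 they had 8 of 16, 4 of 10 and 2 of 10 in that order. All genes tested had 20.3%. The shares of the calcium channel regulator and phospholipase C lists lie above that of all genes, which was not tested. The median differences of these lists were −0.04, 0.05 and −0.04 in the same order, beside −0.01 for all genes. The highest gene of each was CALM3, a calmodulin gene (mean 709.5 FPKM, difference 0.01, adjusted p = 0.974), GNA11, a G protein subunit that activates phospholipase C (61.6 FPKM, −0.08, adjusted p = 0.568), and SENP2, a SUMO protease (72.2 FPKM, −0.01, adjusted p = 0.954). With ETV1 sgRNA against Luciferase sgRNA 0 genes of these 6 lists were called, and each list had between 0 and 2 at an unadjusted p under 0.05, beside 8.20% of all genes. Between HAND1 sgRNA and ETV1 sgRNA, ATP2B1 and GJB2 were higher and SLC8A1 and ATP1B1, a subunit of the sodium pump, were lower. Of 18 store, pump and exchanger genes 1 was higher and 1 lower. Of 6 gap junction genes 1 was higher, and of 14 gradient genes 1 was lower. The other lists had 0, and over all genes tested 2.01% were called higher and 2.04% lower. Of the 4 genes named, ATP2B1 (0.46, adjusted p = 0.00454) was called under all 18 alternatives. GJB2 (0.58, adjusted p = 0.0118) lost the call without HAND1 sgRNA replicate 2 (0.0586). SLC8A1 (−0.55, adjusted p = 0.0181) lost it without HAND1 sgRNA replicates 1, 2 or 3 (0.0589, 0.0671 and 0.0653) or ETV1 sgRNA replicates 1 or 2 (0.0612 and 0.0736). ATP1B1 (−0.24, adjusted p = 0.0293) lost it with quantile normalization (−0.18, adjusted p = 0.374) and without HAND1 sgRNA replicates 1, 2 or 3 (0.129, 0.0771 and 0.0902), ETV1 sgRNA replicates 1, 2 or 3 (0.0836, 0.114 and 0.103) or Luciferase sgRNA replicate 2 (0.0555).

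The libraries do not keep strand, and for 21 of the 37 channel genes an exon of another gene overlaps theirs in GENCODE 29. Of the genes called, KCNJ8, KCNMB2 and ORAI3 are among these, as are ANO1 and CACNA1H, so their values may hold reads of the partner, while SCN4B, ORAI1 and KCNE4 have no such overlap.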

How the data were processed

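The authors deposited 1 table of FPKM values, with 1 value per gene symbol and library. Per the submitters' processing notes, the tools were STAR and Cufflinks (no version named) and the build was hg19. The libraries were non-stranded, per the labels' protocols. No source used here gives the annotation or the scaling between libraries. Values below 1e-06 were read as 0. Levels were put on log2(FPKM + 1). The 11348 genes averaging 1 FPKM or more across the 9 libraries entered limma 3.58.1 (R 4.3.3), fitted by group alone, with an intensity trend, two-sided tests and Benjamini-Hochberg adjustment over all genes tested. There were 6 residual and 4.15 prior degrees of freedom, and the procedure was tested on simulated data. SDs are over 3 libraries. Relative depth came from the most frequent ratio of low values. In 28 rows a spreadsheet date replaces the symbol. Members and lists were chosen with earlier results of these data known. The rule for named genes took ANO1, CACNA1H, those called, those of at least 10 FPKM, the highest of each family, those nearest the minimum and, from each list, those called against Luciferase sgRNA or else the highest. Other genes named (KCNJ11, KCNC1, TRPC1, TRPM4, KCNQ1, KCNMA1, CACNA1C, CACNA1G, ITPR1, ITPR2, ITPR3, ABCC9, ATP1B1, STIM1, STIM2, GJA1, GJC1, CLIC1 and markers) were chosen after their values were seen. Overlaps between genes came from GENCODE 29 (GRCh38), another build, and serve for names only. For gap junction genes 1 result is not reported here.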

Additional observations from a re-analysis of the deposited data

How the results depend on the processing

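The alternatives were a pseudocount of 0.1 or 5, no minimum or a mean of at least 5 FPKM, median centring, quantile normalization, no intensity trend, only the 2 groups compared, the replicate block and each library left out. With HAND1 sgRNA against Luciferase sgRNA the number of channel genes called stayed within 1.5 times the main 4. KCNJ8, SCN4B and ORAI1 were called under all 18. Without the trend KCNC1 and TRPC1 were called as well, and the count was 6. With 1 library left out it was 3 to 4. With ETV1 sgRNA it was 0 to 1 with 1 library left out, and 0 otherwise. Between HAND1 sgRNA and ETV1 sgRNA it was 1 to 4 with 1 library left out, and 2 (KCNE4 and ORAI1) with the replicate block, where KCNMB2 had an adjusted p of 0.0569 and ORAI3 of 0.104. ORAI3 also lost its call with no minimum, median centring, no trend and only the 2 groups compared. The cause was not tested. The replicate numbers are not stated to mark pairs, so they were not taken as pairs. Deviations of same-numbered libraries correlated from −0.15 to 0.14 over the 3 comparisons, and those of differently numbered libraries from −0.13 to 0.20. The block also lost SLC12A4 against Luciferase sgRNA (adjusted p = 0.0539) and ATP1B1 between HAND1 sgRNA and ETV1 sgRNA (0.0707), and called ABCC9 with HAND1 sgRNA (0.0481). No called difference changed sign, and centring and quantile scaling moved the median of all genes by at most 0.02. Depth in fragments is unknown, so precision at low FPKM rests on the spread between libraries.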

Other observations

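Channels outside the name rule were also expressed. Of 50 such symbols listed, 45 were in the table and 23 passed a mean of 1 FPKM. CLIC4, an intracellular chloride channel protein, led with a mean of 144 FPKM, followed by LRRC8A, a subunit of the volume-regulated anion channel, at 29.6 FPKM, and the lysosomal exchanger CLCN7 at 17.6 FPKM. PIEZO1, a mechanically gated channel, was at 16.3 FPKM, TRPA1, an irritant-gated channel known from sensory neurons, at 12.8 FPKM, and P2RX4, an ATP-gated channel, at 12.0 FPKM. HCN2, a hyperpolarisation-activated pacemaker channel, had a mean of 1.65 FPKM, while HCN4, its main relative in the sinus node, was at 0.0037 FPKM. In limma 0 of the 23 were called in any comparison, with 5 at an unadjusted p under 0.05 with HAND1 sgRNA against Luciferase sgRNA, 1 with ETV1 sgRNA against Luciferase sgRNA and 3 between HAND1 sgRNA and ETV1 sgRNA. All genes tested had 20.3%, 8.20% and 15.4% at that threshold in these comparisons. These genes other than the list's highest were named after their values were seen.

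Summed over its 16 genes, the inward-rectifier family had 57.3 ± 1.58 FPKM with HAND1 sgRNA, 53.6 ± 4.98 FPKM with ETV1 sgRNA and 42.9 ± 0.945 FPKM with Luciferase sgRNA (SD, n = 3), most of it from KCNJ8. Store-operated genes summed to 108.5 ± 3.01 FPKM with HAND1 sgRNA, 93.5 ± 2.00 FPKM with ETV1 sgRNA and 96.4 ± 2.97 FPKM with Luciferase sgRNA. Voltage-gated potassium channels, led by KCNH2, summed to 52.3 ± 1.48 FPKM with HAND1 sgRNA, 57.1 ± 2.71 FPKM with ETV1 sgRNA and 53.6 ± 2.35 FPKM with Luciferase sgRNA. These sums were not tested.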
